A study of Bos taurus with 6 samples.

Results

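The 5 NF-kappaB subunits and 5 of the genes that restrain them were followed through the methylation maps of bovine dermal fibroblasts. They were taken by gene symbol: NFKB1, NFKB2, RELA, RELB and REL for the subunits, and NFKBIA, NFKBIB, NFKBIE, NFKBIZ and TNFAIP3 for the inhibitors. All 10 were found among the 26107 gene symbols printed beside the windows of the deposited files. Their labels covered 87 windows of about 3 kb, and with the window upstream of each start they took up 97 of 902984 windows.

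The libraries were made by MIRA-Seq, in which proteins that bind methylated CpG sites pull sonicated genomic DNA out of the mixture before it is sequenced. Dermal fibroblasts of 3 Holstein heifers were sampled at 5 and again at 16 months of age, grown in culture and collected at passage 5 with no treatment, so that neither group had met LPS. Each animal gave 1 culture and 1 library at each age, 6 libraries in all, and no genotype or allele was recorded that separates the animals. The study took its animals from the middle of the range of responses to LPS. Age of the animal and everything else that separated the 2 sampling times cannot be told apart. The p-values measure the spread between these libraries, which the fits by age and animal drew largely from all features tested together.

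NF-kappaB is a family of dimeric transcription factors that waits in the cytoplasm of resting cells. Inhibitors of the IkappaB family cover the part of the dimer that would carry it into the nucleus, and signals such as LPS acting on TLR4 lead a kinase complex to mark these inhibitors for destruction. Several inhibitor genes are themselves switched on by NF-kappaB, which closes a negative feedback loop, and in fibroblasts the pathway drives genes for chemokines and other inflammatory mediators. Methylated CpG sites are commonly sparse at the starts of widely used genes and common inside transcribed genes. The study asked whether methylation changed between the ages, and these 10 genes sit at the centre of the response it examined.

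Signal is given as RPKM, the reads of a region per kilobase and per M reads matched to the genome. The start of a gene is its first labelled window on its strand together with the window upstream, about 6 kb, and the body is every labelled window past the first. RPKM rises with the number of CpG sites as well as with the share that is methylated, and these cannot be told apart here. The libraries held 19.9 to 43.6 M counted reads. A count of 0 in a window of 3 kb allows up to 0.0147 to 0.0308 RPKM, taken as 3 reads, which covers counting error only. The 5-month library of animal 1 stood apart with 31.5% of its windows at 0 and the lowest median over unlabelled windows, 0.0103 RPKM against 0.0173 to 0.0410 in the others. At the starts of 13 germline genes, which somatic cells usually carry methylated, the median was 0.321 RPKM. At 18 starts of housekeeping genes it was 0.0853 RPKM. The sets overlapped. Among the housekeeping starts RAB7A reached 1.29 RPKM and GAPDH 0.520 RPKM, and among the germline starts DDX25 had only 0.0789 RPKM. The median was 0.0164 RPKM over 12 fibroblast marker starts, 0.228 RPKM over 7 of keratinocytes, 0.0856 RPKM over 5 of endothelium and 0.149 RPKM over 7 of immune cells. These levels do not measure expression, so the cell type was taken from the labels.

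The starts of the NF-kappaB genes carried little signal and most of their bodies carried much more. The median start of the 10 genes was 0.0473 ± 0.0172 RPKM (mean ± SD of the library medians, n = 6), and the median body was 0.417 ± 0.0867 RPKM. Over all labelled genes on the chromosomes the median of the gene means was 0.0553 RPKM for 25340 starts and 0.0861 RPKM for 20820 bodies. By that measure the 10 genes had 0.0465 RPKM at starts and 0.437 RPKM in bodies. No member start passed 0.5 RPKM, the level the study used to divide high from low, while 9.15% of all starts did, and 5 of 10 member bodies passed it, while 18.7% of all bodies did. The study applied that level to promoter regions shorter than the starts used here and to whole gene bodies. The median level over the inhibitors was 0.0301 RPKM at starts and 0.577 RPKM in bodies, and over the subunits 0.0707 and 0.203 RPKM.

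**Figure D1:**
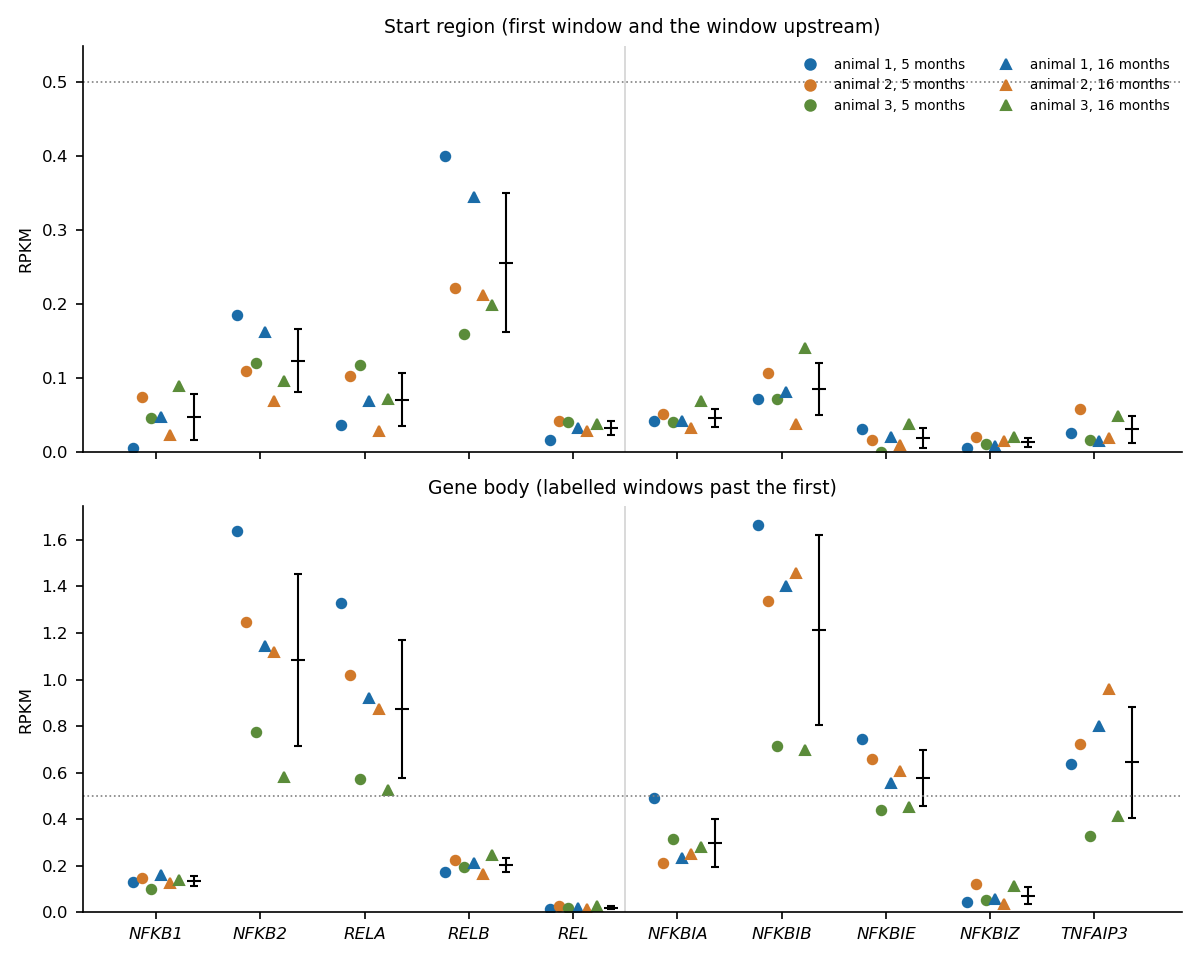
RPKM of the start region (upper panel) and the gene body (lower panel) of the 10 genes in the 6 libraries, with colours for animals, circles for 5 months, triangles for 16 months, and black bars for the mean ± SD (n = 6). The dotted line marks 0.5 RPKM: no start reaches it, the bodies of NFKB2, RELA, NFKBIB, NFKBIE and TNFAIP3 have means above it, and the panels have different scales.

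Among the subunits, NFKB2 and RELA had the highest bodies. NFKB2 encodes the precursor that is cut to release the partner of RELB in the alternative pathway, and it lies at chr26:22890031-22899030 on the plus strand of UMD v3.1 in 3 windows. Its body held 1.64, 1.25 and 0.775 RPKM at 5 months in animals 1, 2 and 3, in that order, and 1.14, 1.12 and 0.581 RPKM at 16 months. Its start held 0.185, 0.109 and 0.120 RPKM at 5 months and 0.161, 0.0691 and 0.0958 RPKM at 16 months. Every start value was below every body value, and both libraries of animal 3 had the lowest bodies. The body level was higher than that of 92.1% of all genes with a body, and the start level higher than that of 70.3% of starts.

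RELA encodes the subunit that carries most of the activating function of the classical dimer. It lies at chr29:44495919-44507918 on the minus strand in 4 windows. Its body held 1.33, 1.02 and 0.571 RPKM at 5 months and 0.921, 0.873 and 0.527 RPKM at 16 months. At the start the values were 0.0359, 0.103 and 0.117 RPKM at 5 months and 0.0685, 0.0277 and 0.0718 RPKM at 16 months. As in NFKB2, both libraries of animal 3 lay below the other 4 in the body, which exceeded 89.3% of all bodies. Window 3, which is marked with a coding segment, was the highest at 1.39 ± 0.557 RPKM (SD, n = 6) and took 52.1% of the reads of the gene.

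NFKB1 encodes the precursor of the DNA-binding partner of RELA and is the longest of the 10 genes, at chr6:23556582-23670581 on the minus strand in 38 windows. Its body averaged only 0.134 ± 0.0202 RPKM (SD, n = 6), with 0.129, 0.146 and 0.102 RPKM at 5 months and 0.162, 0.128 and 0.139 RPKM at 16 months. The signal was gathered at the far end. Windows 35, 37 and 38 from the start held 0.649, 1.05 and 0.795 RPKM, and window 37 (chr6:23559582-23562581) alone took 20.9% of the reads in 2.63% of the length. The start averaged 0.0471 ± 0.0310 RPKM, and its first window held 0 to 18 reads per library, with 0 in the 5-month culture of animal 1.

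In RELB and REL, unlike the other 8 genes, the start was not below the body in 6 of 6 libraries. RELB, the subunit of the alternative pathway, lies at chr18:53097398-53127397 on the plus strand in 10 windows. Its start held 0.400, 0.222 and 0.160 RPKM at 5 months and 0.345, 0.212 and 0.198 RPKM at 16 months, the highest mean of the 10 starts, above 82.3% of all starts. Nearly all of this lay in the upstream window (chr18:53094398-53097397), which bears no gene label and comes between the windows labelled CLPTM1 and those labelled RELB. That window averaged 0.470 ± 0.197 RPKM, and the first labelled window averaged 0.0426 ± 0.0181 RPKM. Animal 1 was highest in the upstream window at both ages, at 0.780 and 0.646 RPKM against 0.282 to 0.396 RPKM in the other 4 libraries. The RELB body averaged 0.203 ± 0.0316 RPKM and peaked in its middle, at 0.512 RPKM in window 7 and 0.457 RPKM in window 8.

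REL encodes c-Rel, a subunit best known from lymphocytes, and lies at chr11:43488485-43530484 on the plus strand in 14 windows. It had the lowest body of the 10 genes, with 0.0126, 0.0277 and 0.0192 RPKM at 5 months and 0.0188, 0.0128 and 0.0274 RPKM at 16 months, and only 10.6% of all bodies were lower. Its start averaged 0.0324 ± 0.00985 RPKM, and its first window held 2 to 8 reads per library. Its highest window, the 12th, reached 0.0549 RPKM and bears no coding segment. Its level throughout was near the one that 3 reads would give in 1 window.

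**Figure D2:**
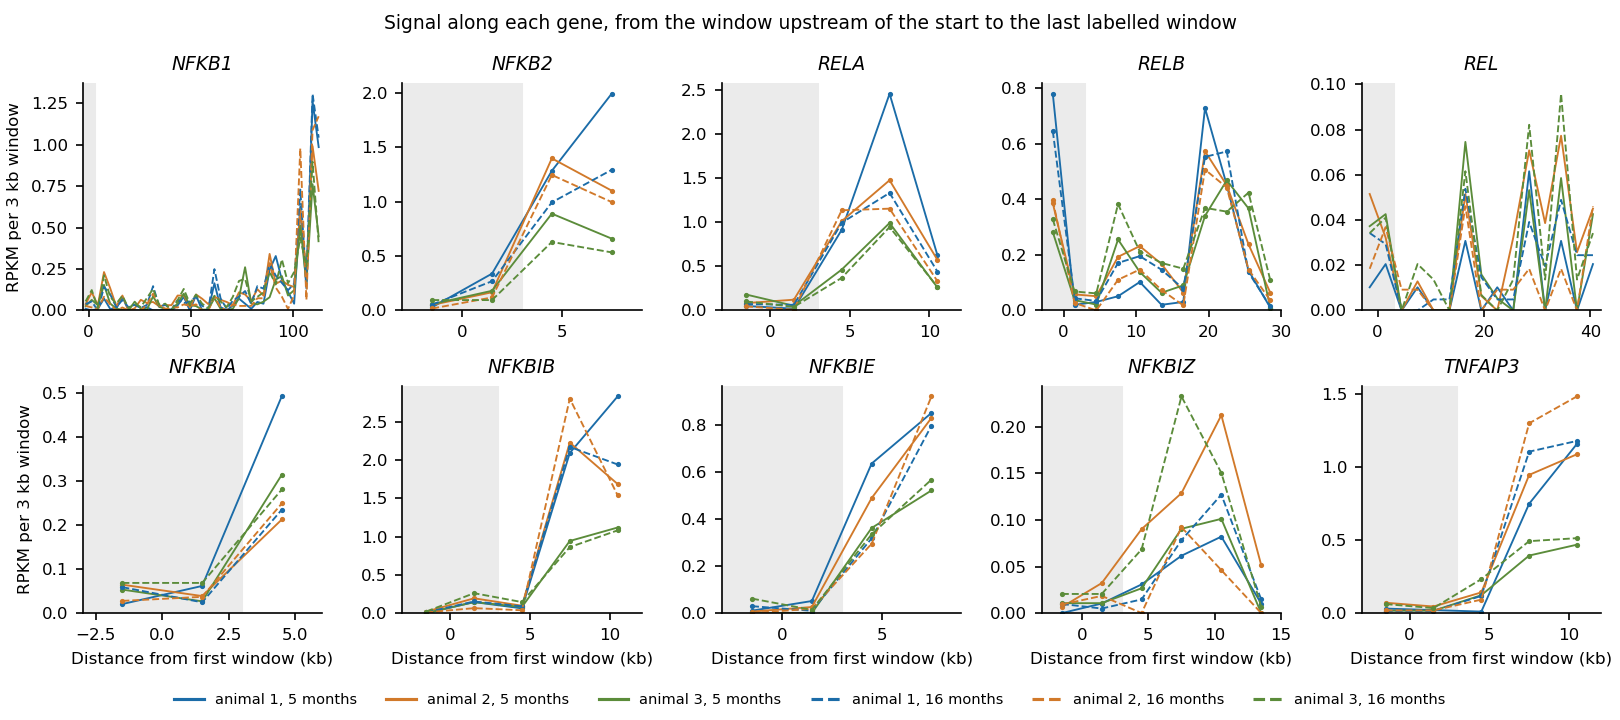
RPKM of each window (about 3 kb) against its distance from the first labelled window in kb, for the 10 genes and 6 libraries, with colours for animals, solid lines for 5 months and dashed lines for 16 months. Grey marks the start region, which is low in each gene except RELB, where the upstream window averages 0.470 RPKM, and in NFKB1 the signal rises in the last windows. The vertical scales differ between genes.

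Among the inhibitors, mean starts ran from 0.0128 RPKM in NFKBIZ to 0.0846 RPKM in NFKBIB, and 3 of 5 genes had bodies above 0.5 RPKM. NFKBIA encodes IkappaBalpha, the inhibitor that is degraded and resynthesised fastest, and lies at chr21:46064163-46070162 on the minus strand in 2 windows. Its start held 0.0410, 0.0515 and 0.0399 RPKM at 5 months and 0.0416, 0.0323 and 0.0684 RPKM at 16 months. Its body is the single remaining window, with 0.492, 0.212 and 0.314 RPKM at 5 months and 0.235, 0.249 and 0.280 RPKM at 16 months. Every start value was below every body value, and the highest body value came from the library with the lowest background.

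NFKBIB encodes IkappaBbeta, a slower inhibitor, and had the highest body of the 10 genes. It lies at chr18:48882198-48894197 on the plus strand in 4 windows, and its upstream window is labelled SIRT2 on the opposite strand. Its body held 1.66, 1.34 and 0.713 RPKM at 5 months and 1.40, 1.46 and 0.695 RPKM at 16 months. Both libraries of animal 3 lay below the other 4, and the body mean of 1.21 RPKM was above 93.3% of all bodies. Window 3 averaged 1.85 ± 0.776 RPKM and window 4 averaged 1.70 ± 0.646 RPKM, while the 2 windows on either side of the start, SIRT2's included, averaged 0.00981 and 0.159 RPKM.

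NFKBIE encodes IkappaBepsilon, and lies at chr23:17879993-17888992 on the minus strand in 3 windows, with an upstream window labelled TMEM151B on the plus strand. Its body held 0.744, 0.660 and 0.442 RPKM at 5 months and 0.558, 0.608 and 0.451 RPKM at 16 months. Its start averaged 0.0189 ± 0.0138 RPKM, a body to start ratio of 30.6 that was the highest of the 10 genes. That ratio rests on few start reads, with 15 in the first window over the 6 libraries. In the 5-month culture of animal 3 the first window and the upstream window each held 0 reads, which allows up to 0.0160 RPKM in each.

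NFKBIZ encodes IkappaBzeta, a nuclear family member that can also help NF-kappaB to activate target genes, and lies at chr1:46540501-46555500 on the plus strand in 5 windows. It was low throughout, with a start of 0.0128 ± 0.00627 RPKM and a body of 0.0715 ± 0.0367 RPKM. Its first window held 1 to 5 reads per library, so that differences among libraries could not be resolved there. Its body held 0.0462, 0.121 and 0.0546 RPKM at 5 months and 0.0587, 0.0346 and 0.115 RPKM at 16 months, and no animal was highest at both ages.

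TNFAIP3 encodes a ubiquitin-editing enzyme that switches off signalling upstream of the kinase complex, and lies at chr9:76766151-76778150 on the plus strand in 4 windows. Its body held 0.639, 0.725 and 0.328 RPKM at 5 months and 0.801, 0.959 and 0.413 RPKM at 16 months. It was higher at 16 months in each animal on this scale, and animal 3 was lowest at both ages. The start averaged 0.0301 ± 0.0184 RPKM, above only 29.7% of all starts, with 2 to 7 reads per library in the first window.

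The start was below the body in 6 of 6 libraries in 8 of 10 genes, namely all 5 inhibitors and NFKB1, NFKB2 and RELA. Among all 20820 genes with a body, 46.4% had a lower start in 6 of 6 libraries. The differences ranged from -0.0587 RPKM in NFKBIZ to -1.13 ± 0.427 RPKM (SD, n = 6) in NFKBIB. Each of the 8 gave p = 0.0312 in a two-sided exact sign-flip test across the 6 libraries, the smallest value available to it, and an adjusted p of 0.0489 over all genes, and 51.2% of all genes were called lower at the start in this way. REL was higher at the start in 6 of 6 libraries by 0.0126 ± 0.00592 RPKM (exact sign-flip p = 0.0312, adjusted p = 0.0489). Of all 20820 genes, 4412 were called higher at the start in this way. RELB was higher in 3 libraries and lower in 3 (exact sign-flip p = 0.375). The 2 libraries of an animal are not independent, and over 3 animals the same test cannot go below 0.25.

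With the first window alone as the start, 9 genes were lower in 6 of 6 libraries, and against the median of the body windows 7 were. The shares of all genes at these settings are not given here, and the share above belongs to the main setting. The result for RELB turned on its upstream window: with the first window alone the start minus the body was -0.161 RPKM (exact sign-flip test, adjusted p = 0.0501). The difference in NFKB1 rested on the few high windows at its end: against the median of its body windows the start minus the body was -0.0106 RPKM (exact sign-flip test, adjusted p = 0.240).

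The files print a coding-sequence number beside some windows of a gene, which the deposited definitions describe as a count for the gene and which was read here as marking a coding segment in the window. Of the 87 labelled windows 54 bear this mark, and 13 passed 0.5 RPKM on average, all 13 of them marked. Windows with and without a coding segment could be compared in 4 bodies. The values were 0.227 against 0.0468 RPKM in NFKB1, 0.236 against 0.0897 RPKM in RELB and 1.77 against 0.0844 RPKM in NFKBIB, each higher in 6 of 6 libraries. REL went the other way, with 0.0132 against 0.0238 RPKM, lower in 6 of 6 libraries. Of 12098 genes with both kinds of body window, 69.3% had the higher mean in coding windows. This comparison was chosen after the values were seen and is given with no test, and CpG content was not measured here.

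No window, start or body of the 10 genes was called different between the ages. Windows were tested where at least 3 of 6 libraries reached 1 count per M counted reads (CPM), which 20 of the 97 member windows did, 19 of them in bodies, 1 upstream of RELB and none a first window. By edgeR's quasi-likelihood test with the animal as a block, 0 of 20 passed both thresholds of a call (FDR below 0.1, at least 2-fold), while 0.185% of 104658 windows did. At an unadjusted p under 0.05 there were 3 member windows, and 7.10% of all windows. DESeq2 called 0 and gave 0 at an unadjusted p under 0.05. The 20 log2 fold changes ran from -0.48 to 0.60, 10 above 0 and 10 below, where a positive value is higher at 5 months. The 95% intervals of 3 of 20 reached a 2-fold difference.

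The 3 windows that came closest were in TNFAIP3, NFKBIE and RELA. Values of windows by age are CPM over the reads of the tested windows, scaled by TMM factors. Window 3 of TNFAIP3 (chr9:76772151-76775150) held 3.36, 4.87 and 3.21 CPM at 5 months in animals 1 to 3 and 5.39, 6.99 and 3.66 CPM at 16 months. It was lower at 5 months in 3 of 3 animals and the ages overlapped, with a log2 fold change of -0.48 (SE 0.21, edgeR's quasi-likelihood test, adjusted p = 0.580). Window 4 of that gene, its highest, had a log2 fold change of -0.23, and of -0.069 without animal 2.

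Window 2 of NFKBIE (chr23:17882993-17885992) held 2.85, 2.52 and 2.95 CPM at 5 months and 1.55, 1.59 and 2.49 CPM at 16 months. All 3 values at 5 months were above those at 16 months, with a log2 fold change of 0.60 (SE 0.27, edgeR's quasi-likelihood test, adjusted p = 0.610). In this window the deepest base reached 0.469 of the read count in one library, the highest such share of the 20 windows, and the part of stacked reads in the difference was not tested. The neighbouring window 3 of NFKBIE, the highest of the gene, had a log2 fold change of -0.08.

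Window 3 of RELA (chr29:44498919-44501918) held 11.0, 7.59 and 8.06 CPM at 5 months and 6.49, 6.19 and 7.01 CPM at 16 months. The values at 5 months were again above all of those at 16 months. Like that of NFKBIE, this window was named for its unadjusted p under 0.05, and the share of all windows that separate so is not given here. The log2 fold change was 0.43 (SE 0.21, edgeR's quasi-likelihood test, adjusted p = 0.690). It was 0.24 without animal 1, whose 5-month library gave the highest value. The highest windows of the other genes that passed the filter had log2 fold changes of -0.16 in NFKB1, 0.34 in NFKB2, 0.14 in RELB, 0.35 in NFKBIA and -0.12 in NFKBIB. Without animal 1 they were 0.064 in RELB and 0.016 in NFKBIA. Of the 20 windows, 9 moved the same way in 3 of 3 animals, where 26.0% of all windows did.

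**Figure D3:**
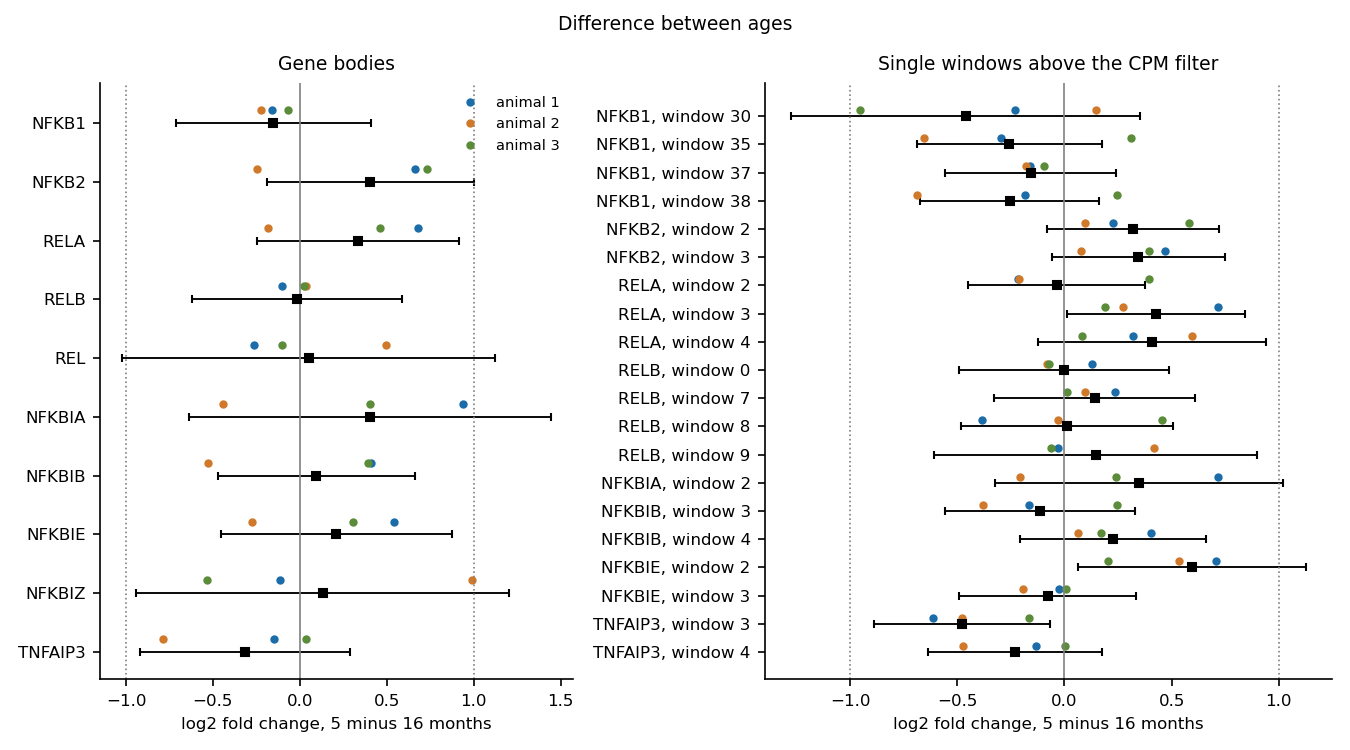
Log2 fold change between ages (5 minus 16 months) of the 10 gene bodies (left) and the 20 member windows above the CPM filter (right), with black squares and bars for the fitted value and its 95% interval and coloured dots for the difference in each animal on the log2(CPM + 0.5) scale. Dotted lines mark a 2-fold difference, window 0 is the window upstream of RELB, and the intervals of 17 of 20 windows and 6 of 10 bodies stay inside the 2-fold lines.

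All 10 bodies passed the filter. Neither edgeR's quasi-likelihood test nor DESeq2 called any (0 of 10), and both gave 0 unadjusted p under 0.05. Of 15529 bodies tested, 0.0193% were called and 0.477% had an unadjusted p under 0.05. Among the subunits the log2 fold changes were -0.15 (SE 0.29) for NFKB1, 0.41 (SE 0.30) for NFKB2, 0.33 (SE 0.30) for RELA, -0.02 (SE 0.31) for RELB and 0.05 (SE 0.55) for REL. Among the inhibitors they were 0.41 (SE 0.53) for NFKBIA, 0.09 (SE 0.29) for NFKBIB, 0.21 (SE 0.34) for NFKBIE, 0.13 (SE 0.55) for NFKBIZ and -0.31 (SE 0.31) for TNFAIP3. Each adjusted p was 1.000. The 95% intervals ran from -1.02 at the lowest to 1.45 at the highest and reached a 2-fold difference in 4 of 10 bodies, those of NFKB2, REL, NFKBIA and NFKBIZ.

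In 6 of 10 bodies the direction in single animals depended on the scale. In RPKM the bodies of NFKB2 and RELA were higher at 5 months in 3 of 3 animals. After TMM scaling of the body counts they were in 2 of 3. Windows had their own scaling. On it both windows of the NFKB2 body were higher at 5 months in 3 of 3 animals. Windows 3 and 4 of RELA were too, but not its window 2. The TNFAIP3 body was lower at 5 months in 3 of 3 animals in RPKM, and after TMM scaling in 2 of 3. NFKB1 was lower at 5 months in 3 of 3 animals after TMM scaling and in 2 of 3 in RPKM, the only body of the 10 with the same direction in 3 animals after scaling, where 13.3% of all bodies had it. RELB differed between the scales in 1 animal and NFKBIE in 2. The log2 fold change of the NFKB2 body was 0.26 without animal 1, 0.60 without animal 2 and 0.18 without animal 3 (edgeR's quasi-likelihood test, adjusted p = 1.000, 0.0993 and 1.000), each short of a 2-fold difference. Without animal 1 the log2 fold changes of the RELA and NFKBIE bodies were 0.14 and 0.018.

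Few starts held enough reads to be compared. Only those of NFKB2 and RELB passed the CPM filter, and neither edgeR's quasi-likelihood test nor DESeq2 called 1 or gave it an unadjusted p under 0.05 (0 of 2). Of 8869 starts tested by edgeR, 0.293% were called and 7.72% had an unadjusted p under 0.05. The NFKB2 start held 1.49, 0.935 and 1.59 CPM at 5 months and 1.38, 0.662 and 1.13 CPM at 16 months (log2 fold change 0.35, SE 0.45, edgeR adjusted p = 0.997). It was higher at 5 months in 3 of 3 animals, where 25.8% of all starts had 1 direction in 3 animals, and the ages overlapped. The RELB start held 3.23, 1.90 and 2.11 CPM at 5 months and 2.95, 2.03 and 2.35 CPM at 16 months (log2 fold change -0.03, SE 0.25, edgeR adjusted p = 1.000). With the filter lowered to 0.25 CPM, 8 starts were tested, and with no filter all 10, and 0 were called. The widest standard errors without a filter were 1.00 for NFKBIZ and 0.89 for NFKBIE, so that even a 2-fold difference at these starts was not detectable.

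Animals were compared through the 2 libraries that each gave, and 0 members passed the test. The F test on the animal term of edgeR's quasi-likelihood fit called 0 of 10 member bodies at an FDR below 0.1, where 2.80% of 15529 bodies were called, and 3 had an unadjusted p under 0.05, where 15.4% of all bodies did. In NFKBIB the bodies of animal 1 held 24.6 and 18.4 CPM at 5 and 16 months, those of animal 2 held 16.9 and 24.7 CPM and those of animal 3 held 12.6 and 9.52 CPM (edgeR's quasi-likelihood test, adjusted p = 0.178). In TNFAIP3 the values were 9.45 and 10.5 CPM, 9.19 and 16.2 CPM, and 5.81 and 5.65 CPM (edgeR's quasi-likelihood test, adjusted p = 0.184). RELA followed with an adjusted p of 0.316 by edgeR's quasi-likelihood test. The fitted levels of the highest and lowest animal differed by 1.94-fold in NFKBIB, 2.14-fold in TNFAIP3 and 1.81-fold in RELA.

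In these 3 genes and in NFKB2 both libraries of animal 3 lay below the other 4, in 4 of 10 bodies, where 30.0% of all bodies showed it. Without animal 3 each of the 10 bodies had an adjusted p of 1.000. The TMM factors of the body fit were 0.852 and 1.08 in animal 3 and 0.895 to 1.15 in the other 4 libraries. In the window fit they were 0.718 and 0.850 in animal 3 and 1.03 to 1.22 in the others. In the start fit they were 0.760 and 0.830 in animal 3 and 1.05 to 1.21 in the others. The part of these factors in the result was not tested. Scaled by library size alone, the bodies of NFKBIB (edgeR adjusted p = 0.0458) and TNFAIP3 (edgeR adjusted p = 0.0866) and the start of RELB (edgeR adjusted p = 0.0255) were called, where with TMM factors 0 members were. At that setting 14.3% of all bodies and 46.9% of all starts were called. Of the 2 starts tested with TMM factors 0 were called, where 24.4% of 8869 starts were, and 0 had an unadjusted p under 0.05, where 32.1% did. Both libraries of animal 1 were highest at the RELB start, and in 0 of 2 starts was animal 3 below the other 4 libraries, where 24.0% of all starts showed it.

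**Figure D4:**
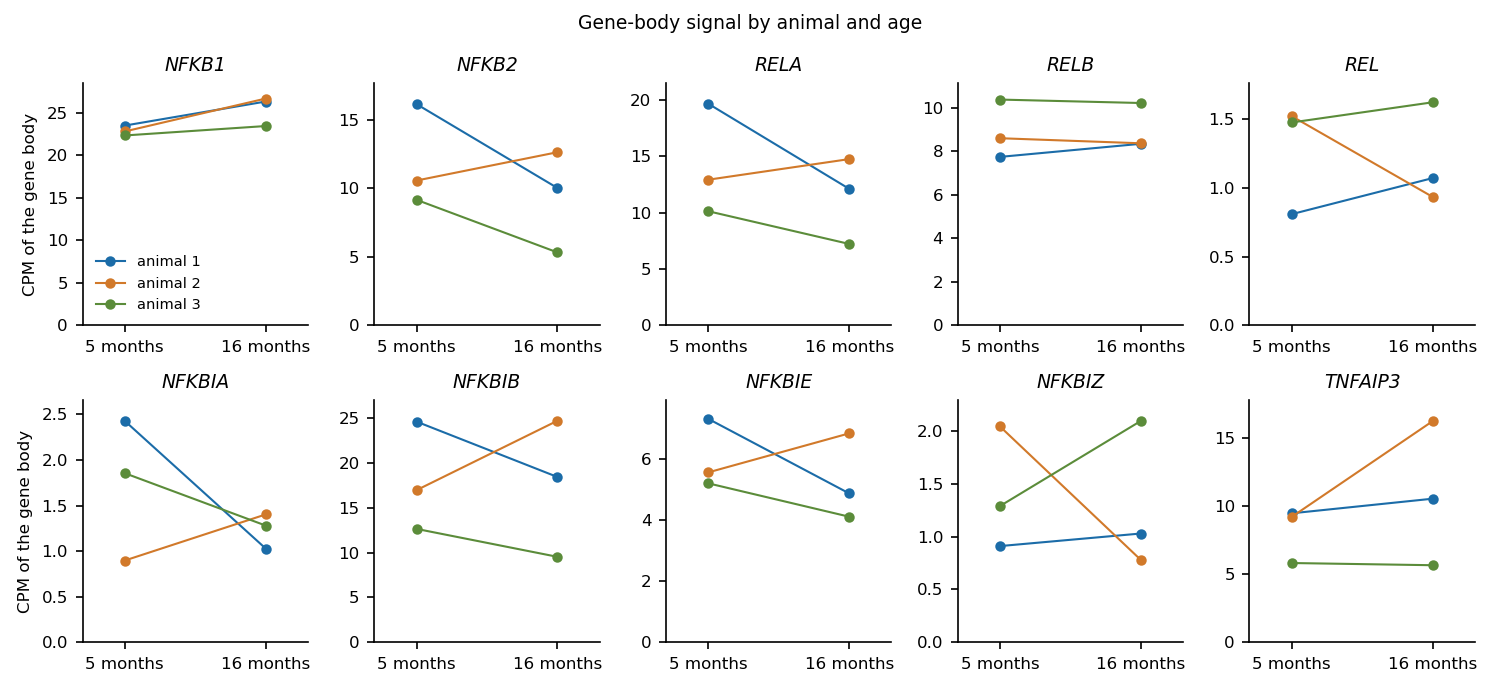
Gene-body signal in CPM scaled by TMM factors (vertical axis, from 0) at 5 and 16 months, with 1 line per animal, for the 10 genes. Animal 3 lies lowest at both ages in NFKB2, RELA, NFKBIB and TNFAIP3, while lines of different animals cross or lie close in most of the others.

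Other genes of the pathway were followed in 5 lists, 69 genes of which 66 were labelled. They were the remaining IkappaB family with NKRF and NKAP, the kinases, the adaptors, the ubiquitin regulators and the target genes. Of their starts 25 were tested and of their bodies 47. By edgeR's quasi-likelihood test 0 were called in either direction, and 0 had an unadjusted p under 0.05. Of all starts tested 0.293% were called and 7.72% had an unadjusted p under 0.05. Of all bodies tested these shares were 0.0193% and 0.477%. The start was below the body in 6 of 6 libraries in 2 of 5 genes of the first list and 6 of 12 kinases. It was so in 9 of 13 adaptors, 5 of 13 ubiquitin regulators and 9 of 20 targets. Beside these stand 8 of 10 of the genes above and 46.4% of all genes.

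The first list had the highest median start of the 5 lists, 0.234 RPKM, and a median body of 0.386 RPKM. Lowest in p at starts were NKRF (log2 fold change -0.52, SE 0.34), a repressor of NF-kappaB activity, and NKAP (-0.22, SE 0.27). In bodies they were BCL3 (0.38, SE 0.30) and NFKBID (0.31, SE 0.36), both nuclear IkappaB proteins. For the kinases the medians were 0.0529 RPKM at starts and 0.130 RPKM in bodies. IKBKG, the scaffold of the IkappaB kinase complex, had log2 fold changes of -0.36 (SE 0.23) at its start and 0.29 (SE 0.29) in its body, TAB1 had 0.39 (SE 0.30) at its start, and MAP3K14, the kinase of the alternative pathway, had 0.29 (SE 0.29) in its body.

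The adaptors had medians of 0.0786 RPKM at starts and 0.384 RPKM in bodies, and TRAF2, which couples receptors to the kinases, had one of the 3 adaptor starts above 0.5 RPKM, at 0.955 RPKM (log2 fold change 0.34, SE 0.23). TRAF1 had log2 fold changes of -0.26 (SE 0.23) at its start and 0.10 (SE 0.29) in its body, and TRADD 0.18 (SE 0.34) in its body. The ubiquitin regulators had medians of 0.0463 RPKM at starts and 0.0488 RPKM in bodies. SHARPIN, part of the enzyme that builds linear ubiquitin chains, and PDLIM2 had log2 fold changes of 0.29 (SE 0.22) and 0.36 (SE 0.28) at their starts, and OTUD7B and TNIP1 of 0.44 (SE 0.37) and 0.27 (SE 0.29) in their bodies. The targets had medians of 0.0406 RPKM at starts and 0.0767 RPKM in bodies. The lowest p of all 5 lists belonged to the start of CSF2, a growth factor gene, with a log2 fold change of 0.44 (SE 0.23, edgeR's quasi-likelihood test, adjusted p = 0.668), followed among target starts by TNF (0.26, SE 0.22), and in bodies by IRF1 (0.77, SE 0.51) and BCL2L1 (0.32, SE 0.32).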

How the data were processed

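MIRA-Seq libraries of 3 animals at 2 ages were grouped by the age and replicate number in their labels. The replicate number was taken as the animal. The authors filtered reads by quality and length, aligned them to UMD v3.1 with NextGENe and deposited read counts per 3 kb window without normalization. The deposited files also give the highest coverage of any base of a window, an unscaled signal, used only to look for stacked reads. How PCR copies were handled was not given in the sources used here. Positions, gene labels (1 per window) and coding segments are as printed in the files, and other builds were not used.

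Counts were analysed in R 4.3.3 with DESeq2 1.42.0, limma 3.58.1 and edgeR 4.0.16, and with pandas 2.3.3, numpy 2.4.6 and scipy 1.17.1 in Python 3.11.15. Figures were drawn with matplotlib 3.10.9. Features with at least 1 CPM in 3 of 6 libraries were tested by edgeR's quasi-likelihood test after TMM scaling, blocked by animal, adjusted by Benjamini-Hochberg over all features tested, and called at an FDR below 0.1 and at least 2-fold (animals: FDR only). The fit left 2 residual degrees of freedom, with 178 prior degrees of freedom for windows. For starts and bodies the prior was infinite, so their spread was pooled over all features tested rather than taken from each gene. Standard errors are the log2 fold change over the root of F, and 95% intervals are 1.96 standard errors. Library sizes in the fits were the reads of the tested windows for windows, and all counted reads for starts and bodies. Each of these fits had its own TMM factors. RPKM used matched reads, on chromosomes 1 to 29 and X.

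The pairing comes from the animals, each sampled at both ages, and rests on the replicate number standing for the animal. Deviations from the age means correlated at 0.290, 0.544 and 0.710 over windows, and over bodies at 0.329, -0.208 and 0.784, for animals 1 to 3. In simulated counts with 200 features changed 2-fold, 67 windows, 99 starts and 100 bodies were recovered. Of those changed 4-fold 198, 199 and 200 were. A call needs an estimated fold of at least 2, so estimates just under it counted as not recovered. The simulated dispersion was close to the fitted one for windows (0.0382) and starts (0.0436). It was below the fitted one for bodies (0.0743), so the recovery of bodies may be too high.

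All 10 members were named. Their windows were named with an unadjusted p under 0.05 or as the highest of their gene, and of each pathway list the 2 genes with the lowest p at starts and in bodies, since none was called. Other windows are named as examples chosen after their values were seen. The members and lists were chosen with earlier results of these data known.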

Additional observations from a re-analysis of the deposited data

How the results depend on the processing

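No member was called between ages under any alternative run, the fit without the animal block included. Over all features the counts of calls moved with the settings. For windows (194 called) they were 15 with DESeq2, 99 by library size, 33 at a CPM filter of 0.25, 2 with no filter, 25 with TMM factors from all windows, 0 with no replicate block and 14 to 1278 leaving out an animal, the highest without animal 3. For starts (26 called) they were 1 with DESeq2, 4 at 0.25 CPM, 4 with no filter, 0 with the first window only, 0 with no replicate block and 1 to 155 without an animal. For bodies (3 called) they were 0 by library size, 0 with no replicate block and 0 to 345 without an animal, the highest without animal 2.

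Between animals, 2162 starts became 219 at 0.25 CPM, 4162 by library size (1 member) and 176 without animal 3, and 435 bodies became 180, 2224 (2 members) and 8. Over counted rather than matched reads the member medians were 0.0771 RPKM at starts and 0.681 RPKM in bodies. With no filter the median log2 fold change of all windows was -0.11.

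Small age differences (log2) of members changed sign. The RELB start was 0.012 by library size, 0.044 at 0.25 CPM, 0.074 with no filter and -0.13 to 0.016 leaving out an animal. The RELB body was 0.0030 with no filter, and the REL body -0.0089 with DESeq2 and -0.0087 with its size factors. Leaving out an animal gave -0.17 to 0.029 for the RELB body, -0.37 to 0.26 for REL, -0.032 to 0.76 for NFKBIA, -0.097 to 0.28 for NFKBIB and -0.59 to 0.57 for NFKBIZ, with -0.27 to 0.044 for window 3 of NFKBIB and -0.11 to 0.0017 for window 3 of NFKBIE. The RELB start minus body was -0.161 RPKM with the first window only and -0.0106 to 0.101 RPKM without an animal, the lowest without animal 1. The causes were not tested. At the starts only 2 of 10 members held enough reads for the filter.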
